A study of Mus musculus with 24 samples.

Results

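The tumor necrosis factor (TNF) superfamily genes described here are 10 genes of T cell costimulation and T cell death, chosen by symbol from the 35817 gene symbols to which the transcripts could be summed. They are the receptors Tnfrsf4 (OX40), Tnfrsf9 (CD137), Tnfrsf18 (GITR), Cd27 and Fas and the ligands Cd40lg (CD154), Tnfsf8 (CD30 ligand), Tnfsf11 (RANKL), Tnfsf14 (LIGHT) and Fasl (Fas ligand). All 10 passed the filter on low counts in every main fit, and 9 did in some of the alternative fits. The study asked how splenic CD4 and CD8 T cells that carry a stabilized human β-catenin transgene (Cat-Tg) differ from wild-type (WT) T cells before and after allogeneic transplantation.

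Ligands of this family act as trimers on the cell surface, and most of their receptors pass the signal on through TRAF adaptors to NF-kappaB, which favors survival and effector function. Fas instead recruits FADD and caspase-8 and starts cell death, and Fas ligand is one of the weapons of cytotoxic T cells and a damaging factor in graft-versus-host disease. OX40, CD137 and GITR are switched on or raised when a T cell is activated, and regulatory T cells hold OX40 and GITR constitutively. CD27 is present on resting T cells, and CD154 is carried mainly by helper CD4 T cells.

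RNA sequencing libraries were made from 8 groups of 3 libraries each. Pre-tx groups were CD8 and CD4 T cells sorted from the spleens of untransplanted Cat-Tg or WT mice on the C57BL/6 background. Post-tx groups were donor-derived CD8 and CD4 T cells sorted from the spleens of BALB/c recipients 7 days after lethal irradiation and transplantation. Those recipients had received Cat-Tg or WT CD4 and CD8 T cells mixed 1:1 together with T cell-depleted WT marrow. The transgene is an N-terminally truncated human β-catenin in the p1017 vector, which carries the proximal Lck promoter that is active in thymocytes and T cells. Founders made in FVB were bred to C57BL/6 and kept heterozygous, and which founder line was used is not given in the sources used here. The post-tx sort relied on the donor H-2Kb molecule, which cells derived from the donor marrow also carry. Library totals ran from 11135713 to 50519825 estimated counts (median 27062440.5), and 3 counts, the least taken here as a detected level, amounted to 0.0517 to 0.289 CPM, the unit of counts scaled to the TMM-normalized library total. No 2 replicates agreed within counting noise.

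The labels were checked against defining markers first. In the 18 libraries of the Cat-Tg groups and the WT post-tx groups, Cd8a made up 99% to 99.9% of the summed Cd4 and Cd8a CPM in CD8 libraries and at most 3.39% in CD4 libraries. The 6 libraries labelled WT pre-tx did not show this. Cd8a took 50% to 63.9% in those labelled CD8 and 52.4% to 65.4% in those labelled CD4, the 4 CD3-complex genes summed to 584 to 965 CPM against 2790 to 4450 CPM in the Cat-Tg pre-tx libraries, and a list of 12 B cell genes summed to 5620 to 8500 CPM against 182 to 634 CPM. Values that rest on these 6 libraries are given as those of the libraries labelled WT pre-tx, and for part of them the value after scaling to the CD3-complex counts is given too. The post-tx CD4 libraries also differed in their content, since a list of 12 myeloid genes summed to 5680 to 6620 CPM in Cat-Tg and 1000 to 1550 CPM in WT. In bulk samples such as these, fewer cells of a type and less RNA per cell cannot be told apart.

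Levels of different genes were compared on the TPM scale of kallisto, which corrects for transcript length. In 5 of the 6 groups other than those labelled WT pre-tx, Tnfrsf18 had the highest mean TPM of the 10 genes, from 177 ± 28.7 (SD, n = 3) in Cat-Tg CD8 pre-tx to 416 ± 80 (SD, n = 3) in Cat-Tg CD4 post-tx libraries. In the remaining group, WT CD4 post-tx, Tnfrsf4 came first with 724 ± 175 TPM and Tnfrsf18 followed with 543 ± 61.6 TPM (SD, n = 3). Tnfrsf9 was second in WT CD8 post-tx libraries, at 241 TPM. Fas did not exceed a mean of 38.1 TPM in any of the 6 groups. Tnfsf11 was the lowest member in each of them, at 0.0756 to 10.2 TPM.

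The order of the groups differed from gene to gene on the CPM scale. Tnfrsf4, Cd40lg, Tnfsf8, Tnfsf11 and Tnfsf14 had their highest mean in WT CD4 post-tx libraries, while Tnfrsf9, Tnfrsf18 and Fasl had theirs in WT CD8 post-tx libraries. Cd27 was highest in Cat-Tg CD8 post-tx and Fas in Cat-Tg CD4 pre-tx libraries. On the TPM scale 8 of the 10 genes kept their highest group, Tnfrsf18 moved to WT CD4 post-tx and Fasl to Cat-Tg CD8 post-tx. The highest groups were not all separated from the next. The Fasl libraries of WT CD8 post-tx ran from 35.5 to 273 CPM and enclosed those of Cat-Tg CD8 post-tx at 103 to 167 CPM, and the Tnfrsf18 libraries of WT CD8 post-tx, at 286 to 794 CPM, overlapped those of WT CD4 post-tx at 299 to 418 CPM. For Tnfrsf9 the lowest library of the highest group, at 386 CPM, lay above every library of the other groups, at most 216 CPM. The margin was narrow for Tnfrsf4, at 305 against 298 CPM, Tnfsf11, at 12.5 against 11.2 CPM, and Fas, at 33.4 against 31.5 CPM. The highest groups were picked from these same values, and the share of all genes with so separate a group is not given here.

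**Figure D1:**
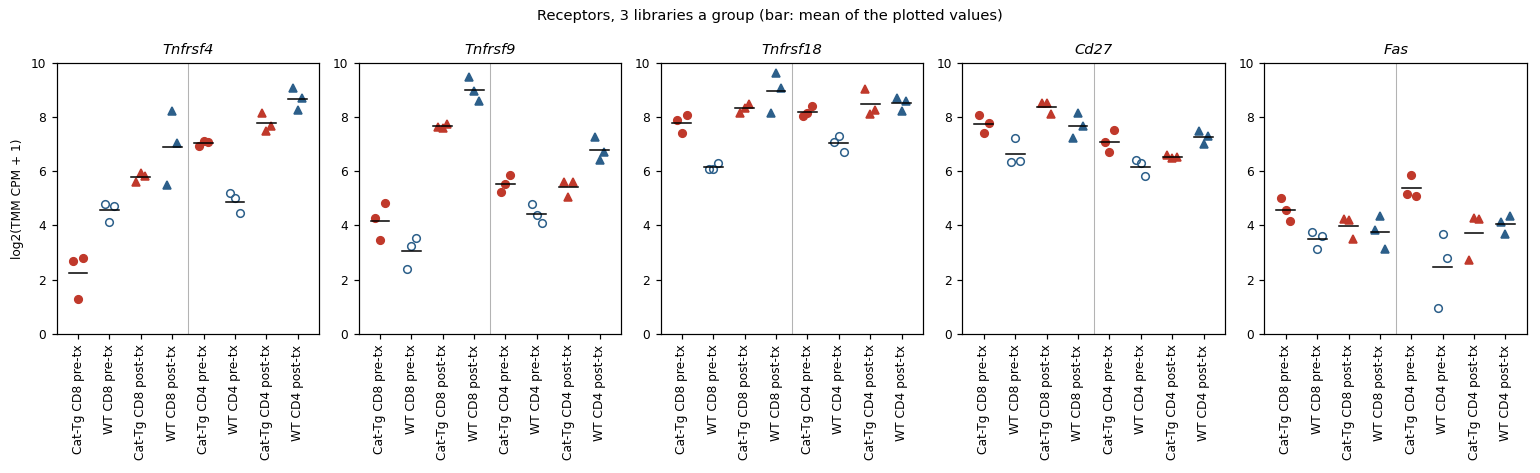
Levels of the 5 receptor genes in all 24 libraries, 1 panel a gene, as log2(CPM + 1) on the vertical axis and the 8 groups on the horizontal axis. Red marks Cat-Tg and blue WT, circles are pre-tx and triangles post-tx libraries, open circles are the libraries labelled WT pre-tx, and bars are means of the plotted values. Tnfrsf9 in WT CD8 post-tx libraries (386 to 709 CPM) stands above its other groups, and Fas is at most 57.5 CPM in any library.

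The effect of transplantation on Cat-Tg CD8 T cells did not involve the libraries labelled WT pre-tx in the contrast itself. Of the 10 genes, 3 rose (Tnfrsf4, Tnfrsf9, Fasl) and 1 fell (Tnfsf8) by edgeR's quasi-likelihood test at a Benjamini-Hochberg (BH) adjusted p of at most 0.05 and at least 2-fold, where 13.9% of the 15960 genes tested in CD8 libraries did so (8.72% rose and 5.23% fell). The median log2 fold change of the 10 genes was 1.82 against -0.26 over all genes tested. The libraries of the 2 groups did not overlap for 8 members, 7 of them higher and 1 lower post-tx, where 49.2% of all genes did not overlap in either direction.

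Tnfrsf4, a receptor that prolongs T cell responses and is engaged by OX40 ligand, was at 5.38, 1.46 and 6 CPM in the 3 Cat-Tg CD8 pre-tx libraries and at 47.6, 60 and 55.5 CPM post-tx. The groups did not overlap, and the difference was 12.8-fold (log2 3.68 ± 0.672 SE, adjusted p 0.00268 by edgeR's quasi-likelihood test). Tnfrsf9, the CD137 receptor that marks CD8 T cells recently stimulated through their antigen receptor, went from 18.4, 10 and 27.1 CPM to 197, 193 and 216 CPM. No pre-tx library came near a post-tx one, and the difference was 11.1-fold (log2 3.47 ± 0.46 SE, adjusted p 0.000247, edgeR). Fasl, the death ligand, was at 12.4, 9.51 and 9.22 CPM pre-tx and 167, 146 and 103 CPM post-tx. Its difference, 13.5-fold (log2 3.75 ± 0.598 SE, adjusted p 0.00104, edgeR), was the largest of the called members, and its post-tx libraries spread more widely than those of Tnfrsf9. These 3 calls held under all 15 alternative settings, with log2 fold changes of 3.25 to 3.97 for Tnfrsf4, 3.15 to 3.8 for Tnfrsf9 and 3.59 to 3.87 for Fasl.

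Tnfsf8, the CD30 ligand, moved the other way, from 61.9, 47.4 and 85.3 CPM pre-tx to 15.2, 8.06 and 11.1 CPM post-tx. The lowest pre-tx library was above the highest post-tx library, and the difference was 5.57-fold (log2 -2.48 ± 0.596 SE, adjusted p 0.0135, edgeR). This call was lost without Cat-Tg CD8 pre-tx replicate 3 (adjusted p 0.0501) or post-tx replicate 2 (adjusted p 0.0738). The remaining receptors moved less, with log2 fold changes of 0.55 ± 0.374 (SE) for Tnfrsf18, 0.63 ± 0.364 for Cd27 and -0.63 ± 0.52 for Fas, none of which passed the test. Cd27 libraries stood at 267, 170 and 218 CPM pre-tx and 364, 363 and 276 CPM post-tx, without overlap. Tnfsf14, a ligand that binds HVEM and the lymphotoxin β receptor, varied too widely before transplantation (14.2, 1.33 and 1.64 CPM) for its post-tx level of 33.6, 15 and 28.4 CPM to pass (log2 2.19 ± 1.11 SE, adjusted p 0.175, edgeR). Cd40lg stayed low in Cat-Tg CD8 libraries, at 0.643 to 2.29 CPM pre-tx and 2.29 to 8.24 CPM post-tx (log2 1.46 ± 0.9 SE, adjusted p 0.251, edgeR). Tnfsf11 was at 2 to 6 counts a library pre-tx, at or below the floor in 1 of the 3 libraries, so no fold is given for it.

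Marker lists of other cells moved along with these genes in the same libraries. A list of 6 regulatory T cell genes, of which 6 were found, summed to 76.9 to 131 CPM in Cat-Tg CD8 pre-tx and 801 to 907 CPM in Cat-Tg CD8 post-tx libraries. The same list summed to 1110 to 1420 CPM in WT CD8 post-tx and 557 to 737 CPM in WT CD4 post-tx libraries. Its sum is therefore not taken as a measure of regulatory T cells. Foxp3, the defining transcription factor of those cells, was at 0.897, 1.11 and 8.97 CPM in Cat-Tg CD8 pre-tx libraries and then at 28.5, 29.7 and 48.1 CPM. A list of 6 NK cell genes, several of them also made by effector CD8 T cells, went from 45.1 to 64.3 CPM to 2690 to 4970 CPM, while Ncr1, a receptor largely restricted to NK cells and related lymphoid cells, was at 0.0498, 2.74 and 5.58 CPM pre-tx and 16.6, 5.27 and 13.8 CPM post-tx. The part of such cells in the levels of Tnfrsf4, Tnfrsf9 and Fasl was not tested. The CD3-complex sum stayed close, at 3820 to 4450 CPM pre-tx and 3540 to 3890 CPM post-tx, and Tnfrsf9 per 1000 CD3-complex counts was 2.62 to 6.09 pre-tx and 49.7 to 60.9 post-tx.

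**Figure D2:**
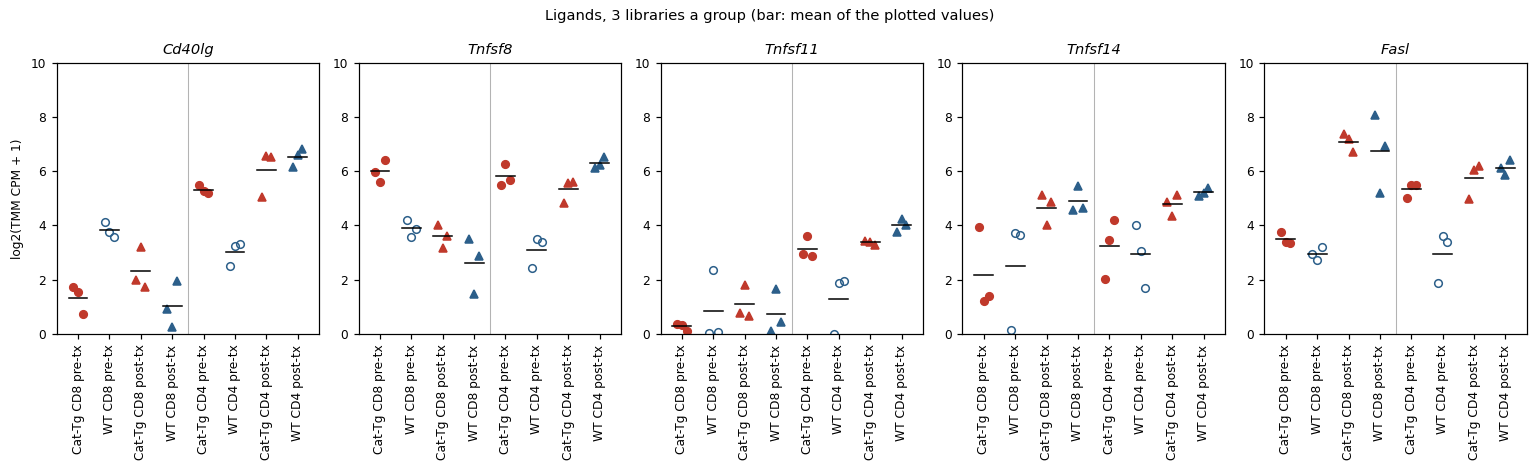
Levels of the 5 ligand genes in all 24 libraries, drawn as for the receptors: log2(CPM + 1) on the vertical axis, the 8 groups on the horizontal axis, red for Cat-Tg, blue for WT, circles pre-tx, triangles post-tx, open circles for the libraries labelled WT pre-tx, and bars for means of the plotted values. Fasl in Cat-Tg CD8 libraries steps from 9.22 to 12.4 CPM up to 103 to 167 CPM, while Cd40lg is at most 8.24 CPM in the Cat-Tg CD8 and WT CD8 post-tx libraries.

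Tnfrsf9 has more than one annotated start, and the transcript tables allowed the starts to be read apart. The gene lies on chromosome 4 of GRCm38 at 150914562 to 150946102 on the plus strand and overlaps Camta1 on the other strand. The counts are not known to use strand, so reads of the overlap cannot be assigned with certainty. Its 2 full-length coding transcripts, Tnfrsf9-201 and Tnfrsf9-205, start 7809 bases apart at 150920190 and 150927999, differ in the first exon and share the 7 later exons. The 250 bases before each RefSeq start site of Tnfrsf9 (150920155 upstream and 150927999 downstream) follow, with those before the start sites of Tnfrsf4 (156013695, chromosome 4, plus strand) and Fasl (161788495, chromosome 1, minus strand), because these 3 genes rose together in Cat-Tg CD8 T cells. All are RefSeq sequence of GRCm38.p6, read 5′ to 3′ on the strand of the gene, and capitals mark matches to the motifs named after them.
Tnfrsf9 upstream start, chr4:150919905-150920154, plus strand: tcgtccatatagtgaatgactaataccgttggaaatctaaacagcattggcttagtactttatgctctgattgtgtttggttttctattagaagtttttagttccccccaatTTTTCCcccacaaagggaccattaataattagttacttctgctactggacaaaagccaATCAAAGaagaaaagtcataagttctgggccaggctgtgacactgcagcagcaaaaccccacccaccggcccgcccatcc
Tnfrsf9 downstream start, chr4:150927749-150927998, plus strand: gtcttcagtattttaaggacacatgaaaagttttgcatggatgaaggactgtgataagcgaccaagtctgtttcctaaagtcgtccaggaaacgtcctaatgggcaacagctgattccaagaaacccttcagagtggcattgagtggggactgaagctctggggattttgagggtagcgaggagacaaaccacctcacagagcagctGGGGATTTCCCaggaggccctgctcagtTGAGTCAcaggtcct
Tnfrsf4, chr4:156013445-156013694, plus strand: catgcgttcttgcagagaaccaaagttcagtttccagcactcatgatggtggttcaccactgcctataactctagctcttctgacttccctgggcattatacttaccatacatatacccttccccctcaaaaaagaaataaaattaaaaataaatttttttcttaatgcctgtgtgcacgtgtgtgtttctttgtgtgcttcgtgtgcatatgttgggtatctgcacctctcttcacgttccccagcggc
Fasl, chr1:161788496-161788745, minus strand: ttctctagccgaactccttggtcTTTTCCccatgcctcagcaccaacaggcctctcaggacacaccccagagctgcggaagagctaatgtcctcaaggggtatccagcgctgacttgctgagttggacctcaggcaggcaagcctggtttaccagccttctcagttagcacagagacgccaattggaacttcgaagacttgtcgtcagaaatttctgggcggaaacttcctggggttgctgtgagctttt

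The windows were searched on both strands, from 250 bases before to 50 bases after the start, for the NF-kappaB consensus and for the letters TGANTCA (AP-1), GGAAAA (NFAT) and ATCAAAG (TCF/LEF, the partner of β-catenin). The downstream Tnfrsf9 window held the NF-kappaB consensus in 2 overlapping matches at positions -43 and -42 from the start, and AP-1 letters at position -15. The upstream window held neither, but had NFAT letters at position -138 and TCF/LEF letters at position -80. The Fasl window had NFAT letters at position -227, and the Tnfrsf4 window held none of the 4 motifs. Among the 10 windows of the 9 members with one, 1 held the NF-kappaB consensus, 3 AP-1, 5 NFAT and 1 TCF/LEF letters, whereas 4.51%, 7.81%, 23.4% and 3.73% of all 32851 promoter windows of that length did. These matches describe letters and not bound sites.

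In Cat-Tg T cells the use of the Tnfrsf9 starts differed between pre-tx and post-tx libraries. Counted at the upstream start were Tnfrsf9-201 and Tnfrsf9-204, which lacks the exon before the last. In Cat-Tg CD8 post-tx libraries Tnfrsf9-201 took 20.8% to 29.5% and Tnfrsf9-204 16.2% to 23.8% of the estimated Tnfrsf9 counts. The downstream start took 69.3% to 83.5% in Cat-Tg CD8 pre-tx and 23.4% to 35.5% in Cat-Tg CD8 post-tx libraries. Transcripts of other annotated starts took the remainder, so counts not upstream were not all downstream. Transcripts of the upstream start took 9.73%, 0.0486% and 0% of the estimated Tnfrsf9 counts in Cat-Tg CD8 pre-tx libraries and 40.8%, 38.5% and 53.3% post-tx. The groups did not overlap, and the same was seen in Cat-Tg CD4 libraries, with 6.94%, 1.47% and 0% pre-tx and 27.8%, 22.1% and 24.5% post-tx. In CPM, the upstream start went from at most 1.79 to between 74.4 and 115 in Cat-Tg CD8 libraries, and the downstream start from 8.37 to 19.5 up to 50.5 to 68.7. In Cat-Tg CD4 libraries the downstream start was at 31 to 49.9 CPM pre-tx and 18.6 to 24.9 CPM post-tx, without overlap, while the upstream start was at most 2.56 and then 7.05 to 13.3 CPM.

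WT post-tx libraries had the same order of the cell types. The upstream share was 54.1%, 57.7% and 55.8% in WT CD8 post-tx and 30.5%, 33.2% and 25% in WT CD4 post-tx libraries, so it was higher in CD8 than in CD4 libraries in both genotypes without overlap. It was also higher in WT than in Cat-Tg CD8 post-tx libraries, again without overlap but by as little as 54.1% against 53.3%. Of the downstream start, WT CD8 post-tx libraries had 83.3 to 99 CPM and Cat-Tg CD8 post-tx libraries 50.5 to 68.7 CPM, and of the upstream start 215 to 384 and 74.4 to 115 CPM. The libraries labelled WT CD8 pre-tx gave 71.6%, 23.1% and 70.5% upstream, on only 139, 227 and 411 estimated Tnfrsf9 counts, and those labelled WT CD4 pre-tx gave 0.00125%, 0% and 28.8%, so pre-tx and post-tx shares overlapped in WT CD4 and in WT CD8 libraries. The shares are kallisto's division of reads among transcripts with shared exons and are given as a description, since an exact permutation test of 3 against 3 libraries cannot go below a p of 0.1.

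**Figure D3:**
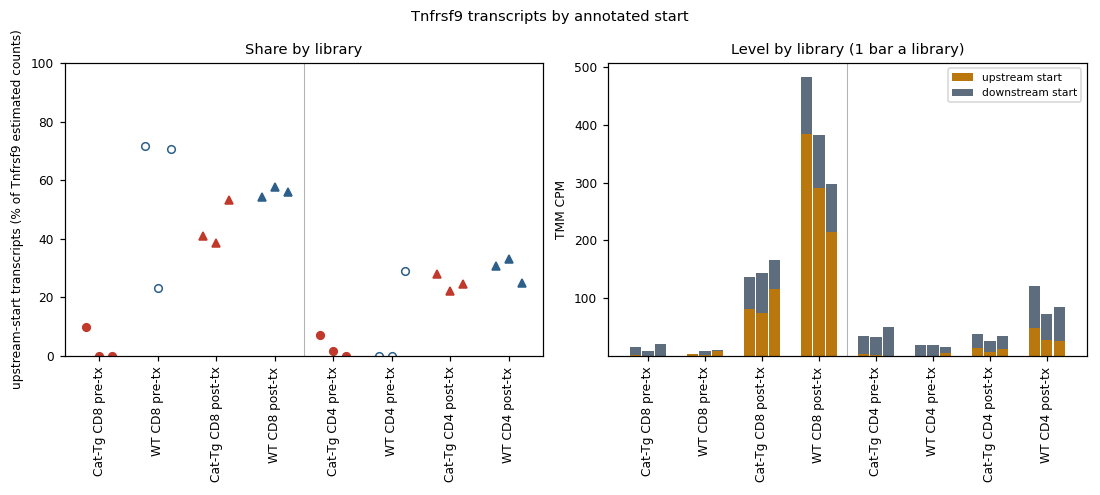
Tnfrsf9 by start site in the 24 libraries. Transcripts of other annotated starts count in the total of the percent but are not stacked. The left panel plots the percent of Tnfrsf9 estimated counts assigned to transcripts of the upstream start, 1 point a library, by group, and the right panel stacks the CPM of the upstream start (orange) and the downstream start (grey), 1 bar a library. In Cat-Tg CD8 libraries the upstream percent is at most 9.73 pre-tx and at least 38.5 post-tx.

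In Cat-Tg CD4 T cells, transplantation left most of the 10 genes short of the test. A single member fell (Fas) and none rose, where 40.9% of the 17227 genes tested in CD4 libraries were called and 27.7% fell, and the members' median log2 fold change was -0.04 against -0.38 over all genes. The libraries did not overlap for 4 members, 2 higher and 2 lower, where 56.8% of all genes did not. Fas, the death receptor, was at 34.4, 57.5 and 33.4 CPM pre-tx and 5.59, 18.3 and 17.7 CPM post-tx. The groups did not overlap, and the difference was 3.78-fold (log2 -1.92 ± 0.631 SE, adjusted p 0.0221, edgeR). It was lost without Cat-Tg CD4 pre-tx replicate 2 (adjusted p 0.0796), without post-tx replicate 1 (adjusted p 0.0728), without the filter on low counts (adjusted p 0.0946) and after scaling to the CD3-complex counts (log2 -0.72, adjusted p 0.342).

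Cd27 passed the adjusted p but not the 2-fold limit, with 134, 103 and 183 CPM pre-tx and 97.1, 88.9 and 90.8 CPM post-tx (log2 -0.93 ± 0.261 SE, adjusted p 0.0101, edgeR). After scaling to the CD3-complex counts, whose sum was 2790 to 3850 CPM pre-tx and 1530 to 2030 CPM post-tx, its sign turned (log2 0.26, adjusted p 0.452). Tnfrsf4 was at 121, 138 and 135 CPM pre-tx and 286, 177 and 204 CPM post-tx, without overlap but under the 2-fold limit (log2 0.44 ± 0.272 SE, adjusted p 0.202), and with CD3-complex scaling the difference was log2 1.67 (adjusted p 0.000147, edgeR). Tnfsf14 did not overlap either and was over the 2-fold limit but failed on the adjusted p, at 3.09, 9.99 and 17.2 CPM against 28.5, 19.4 and 33.5 CPM (log2 1.08 ± 0.599 SE, adjusted p 0.149), and passed the test with limma-voom (log2 1.46, adjusted p 0.0353), with DESeq2 (log2 1.35, adjusted p 0.04) and without the libraries labelled WT pre-tx (log2 1.44, adjusted p 0.0238). Tnfrsf9 (log2 -0.45 ± 0.31 SE), Tnfrsf18 (0.01 ± 0.274), Fasl (0.15 ± 0.422), Tnfsf11 (-0.1 ± 0.762), Cd40lg (0.57 ± 0.359) and Tnfsf8 (-0.82 ± 0.342) had overlapping groups and did not pass. Cat-Tg CD4 post-tx replicate 1 was the lowest library for Cd40lg (32.4 against 93.9 and 92.1 CPM), Fas and Fasl (30.8 against 64.5 and 71.7 CPM), and its 6 red cell genes summed to 26900 CPM against 10800 and 4460 CPM.

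The response of the 2 cell types was compared directly by a time by cell type term over all 24 libraries. Relative to CD4, Cat-Tg CD8 T cells rose further post-tx in Tnfrsf9 (difference of log2 fold changes 3.57 ± 0.541 SE, adjusted p 0.000873), Fasl (3.25 ± 0.741 SE, adjusted p 0.0286) and Tnfrsf4 (2.91 ± 0.694 SE, adjusted p 0.0405) by edgeR's quasi-likelihood test. Of the 19076 genes tested, 0.949% were called for this term and 0.22% were higher. Tnfrsf9 held under all 21 alternative settings, at 2.85 to 4.12. Fasl held under 11 and Tnfrsf4 under 4 of the 21, and in a fit with the replicate number as a block Fasl had an adjusted p of 0.0825 and Tnfrsf4 of 0.134.

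Before transplantation, CD8 and CD4 Cat-Tg T cells were set apart by 2 members, both lower in CD8, where 1.53% of all genes were called and 1.16% were lower. Cd40lg, the helper ligand that activates B cells and dendritic cells through CD40, was at 2.29, 1.93 and 0.643 CPM in CD8 and 43.7, 38 and 35.6 CPM in CD4 libraries (24.2-fold lower, log2 -4.6 ± 0.704 SE, adjusted p 0.000352, edgeR). Tnfrsf4 was 30.6-fold lower in CD8 (log2 -4.94 ± 0.567 SE, adjusted p 9.12e-06, edgeR), with 1.46 to 6 CPM against 121 to 138 CPM. Both calls held under all 15 alternatives. Non-overlapping and lower in CD8 were 6 members, where 9.62% of all genes were.

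After transplantation, 5 members separated the cell types in Cat-Tg mice, 2 higher and 3 lower in CD8, where 5.85% of all genes were called. Tnfrsf9 was 4.75-fold higher in CD8 (193 to 216 CPM against 32 to 48.1 CPM, log2 2.25 ± 0.388 SE, adjusted p 0.000477, edgeR), and Cd27, which sustains the survival of primed CD8 T cells, was 3.62-fold higher (276 to 364 CPM against 88.9 to 97.1 CPM, log2 1.86 ± 0.32 SE, adjusted p 0.000476, edgeR). Cd40lg was 16.2-fold lower (log2 -4.02 ± 0.678 SE, adjusted p 0.00037, edgeR), with 2.29 to 8.24 CPM in CD8 and 32.4 to 93.9 CPM in CD4 libraries. Tnfrsf4 was 4.08-fold lower (log2 -2.03 ± 0.496 SE, adjusted p 0.0124) and Tnfsf8 was 3.56-fold lower (log2 -1.83 ± 0.477 SE, adjusted p 0.0194) in the same fit.

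These cell type differences were not equally firm. Cd40lg and Tnfrsf9 held under all 15 alternatives. Blocking on the replicate number ended the calls of Tnfrsf4 (adjusted p 0.0555) and Tnfsf8 (adjusted p 0.0856) and left 3 of the 5. Of the 15 alternatives, Tnfrsf4 kept its call under 10 and Tnfsf8 under 9. Both also lost it on leaving out single libraries (edgeR adjusted p up to 0.0941 for Tnfrsf4 and 0.151 for Tnfsf8). The Cd27 call was lost after scaling to the CD3-complex counts (log2 0.75, adjusted p 0.0885), which were 3540 to 3890 CPM in CD8 and 1530 to 2030 CPM in CD4 libraries, beside a myeloid list of 374 to 777 CPM in CD8 and 5680 to 6620 CPM in CD4. The part of those cells was not tested. Fasl did not pass between the cell types at 103 to 167 CPM in CD8 and 30.8 to 71.7 CPM in CD4, although the libraries did not overlap.

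In WT post-tx T cells, 3 members were called between CD8 and CD4, 1 higher and 2 lower in CD8, against 12.8% of all genes. Tnfrsf9 was 4.65-fold higher (log2 2.22 ± 0.387 SE, adjusted p 0.000381), Cd40lg 69.7-fold lower (log2 -6.12 ± 0.756 SE, adjusted p 1.39e-05) and Tnfsf8 12.7-fold lower in CD8 (log2 -3.67 ± 0.516 SE, adjusted p 4.46e-05), all by edgeR's quasi-likelihood test. Cd40lg was at 0.881, 0.184 and 2.83 CPM in the CD8 libraries and 71.4, 97.1 and 112 CPM in the CD4 libraries. Replicate 2 of the CD8 libraries had 3 counts of this gene, so the size of the fold is uncertain. WT CD8 post-tx replicate 2 also stood apart, with Tnfrsf4 at 298 CPM against 43.8 and 130, Tnfrsf18 at 794 CPM against 286 and 539, Fasl at 35.5 CPM against 273 and 122, Foxp3 at 44.8 CPM against 1.29 and 9.65, and 6 NK cell genes at 519 CPM against 6840 and 2230. Without it, Tnfrsf4 was also called lower in CD8 (log2 -2.15, adjusted p 0.00424), as was Tnfsf11 (log2 -5.93, adjusted p 0.0258). The genotype by cell type term post-tx called none of the 10 genes with edgeR, limma-voom or DESeq2, where 0.629% of all genes were called with edgeR. An unadjusted p under 0.05 was seen for 3 members, a limit at which the share of all genes is not given here.

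**Figure D4:**
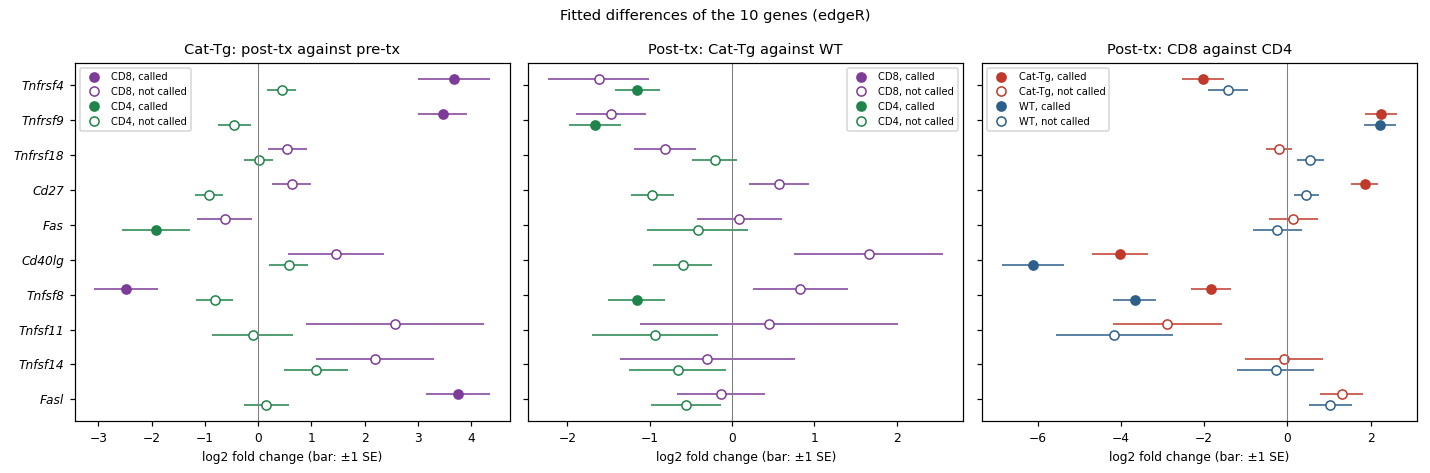
Log2 fold changes of the 10 genes on the horizontal axis with bars of 1 SE, in 3 panels: Cat-Tg post-tx against pre-tx in CD8 (purple) and CD4 (green), Cat-Tg against WT post-tx in CD8 and CD4, and CD8 against CD4 post-tx in Cat-Tg (red) and WT (blue). Filled points were called at an adjusted p of at most 0.05 and at least 2-fold. Tnfrsf4, Tnfrsf9 and Fasl lie between 3.47 and 3.75 in Cat-Tg CD8 and between -0.45 and 0.44 in Cat-Tg CD4, and the fitted values of Tnfsf11 rest on few counts in CD8.

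The genotypes were then compared after transplantation. In CD4 T cells 3 members were lower in Cat-Tg than in WT and none was higher, where 6.4% of all genes were called lower and 10% in either direction. The median of the 10 genes was -0.8 against -0.19 over all genes, and all 10 had a log2 fold change below 0. Tnfrsf9 was at 48.1, 32 and 47.8 CPM in Cat-Tg and 155, 83.9 and 104 CPM in WT CD4 libraries, 3.15-fold lower (log2 -1.66 ± 0.316 SE, adjusted p 0.00433, edgeR). Its highest Cat-Tg library was below its lowest WT library. Tnfrsf4 was at 286, 177 and 204 CPM against 543, 305 and 422 CPM, 2.22-fold lower and without overlap (log2 -1.15 ± 0.275 SE, adjusted p 0.0151, edgeR). Tnfsf8 was at 27.3, 46.8 and 48.3 CPM against 69.2, 73.7 and 90.5 CPM, 2.24-fold lower (log2 -1.16 ± 0.344 SE, adjusted p 0.0426, edgeR). Cd27 passed the adjusted p (0.028) at less than 2-fold (log2 -0.97 ± 0.262 SE, edgeR), and 5 members in all were lower without overlap, where 14.7% of all genes were.

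Cell content moved with this comparison. Cat-Tg CD4 post-tx libraries had 1530 to 2030 CPM of the CD3-complex genes against 1960 to 2750 CPM in WT, and more of the 12 myeloid genes, all of which were found, with Cd14 at 90.7 to 135 CPM against 11.8 to 13.1 CPM and Csf1r at 1320 to 1750 CPM against 119 to 223 CPM. After scaling to the CD3-complex counts none of the 3 genes stayed called, with log2 fold changes of -0.92 for Tnfrsf9 (adjusted p 0.0508), -0.4 for Tnfrsf4 (adjusted p 0.3) and -0.5 for Tnfsf8 (adjusted p 0.338) by edgeR. Tnfrsf9 kept its call under the other 14 of 15 alternatives. Tnfrsf4 lost it under 6, which included leaving out Cat-Tg CD4 post-tx replicate 2 (adjusted p 0.0725), replicate 3 (adjusted p 0.0732) or WT CD4 post-tx replicate 1 (adjusted p 0.0706), and Tnfsf8 kept it under 5, since it was lost without any single one of the 6 libraries compared (adjusted p 0.0703 to 0.117). Without the libraries labelled WT pre-tx, Tnfrsf9 alone was called. The part of the myeloid cells was not tested further.

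In CD8 T cells post-tx no member was called between Cat-Tg and WT by edgeR or limma-voom, and 1 (Tnfrsf9) was called by DESeq2, where edgeR called 1.67% of all genes. There were 3 members with an unadjusted p under 0.05, a limit at which the share of all genes is not given here. Tnfrsf9 was at 197, 193 and 216 CPM in Cat-Tg and 709, 502 and 386 CPM in WT, the 1 member whose groups did not overlap, where 25.3% of all genes did not. Its log2 fold change was -1.47 ± 0.426 (SE, adjusted p 0.087) with edgeR and -1.57 (adjusted p 0.0118) with DESeq2. Tnfrsf4 (log2 -1.62 ± 0.616 SE, adjusted p 0.184) and Tnfrsf18 (log2 -0.82 ± 0.376 SE, adjusted p 0.251) had wide WT groups in which replicate 2 was the highest library. Fasl was at 167, 146 and 103 CPM against 273, 35.5 and 122 CPM, with a log2 difference of -0.13 ± 0.535 (SE). That value is smaller than its SE, and with so wide a WT group a difference of that size was not detectable.

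Comparisons with the libraries labelled WT pre-tx gave many calls, which have to be read beside the content of those libraries. Among CD4 libraries, 8 of the 10 genes were higher in Cat-Tg than in the libraries labelled WT pre-tx, where 12.3% of all genes were higher, led by Tnfsf8 (log2 3.06 ± 0.37 SE, adjusted p 6.49e-05) and Fas (log2 2.97 ± 0.66 SE, adjusted p 0.00457). Per CD3-complex count none of the 8 stayed called, and Tnfrsf9 (log2 -0.71), Tnfrsf18 (log2 -0.71) and Cd27 (log2 -0.89) turned, where 10955 of the 17227 genes were called lower. Among CD8 libraries, Tnfrsf18 (log2 1.7 ± 0.384 SE, adjusted p 0.0118) and Tnfsf8 (log2 2.22 ± 0.59 SE, adjusted p 0.0279) were higher and Tnfrsf4 lower (log2 -2.41 ± 0.638 SE, adjusted p 0.0277) in Cat-Tg, where 8.96% of all genes were called. Per CD3-complex count Tnfrsf18 and Tnfsf8 turned (log2 -1.06 and -0.54), where 12142 of the 15960 genes were called lower. All adjusted p here are from edgeR. The genotype by time term, which uses the same libraries, called 9 members in CD4, all lower in Cat-Tg, where 21.3% of all genes were called and 14.1% were lower, and 2 lower and 1 higher in CD8, where 10.7% were called.

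WT post-tx libraries against those labelled WT pre-tx gave 9 members higher of 10 in CD4, where 13.1% of all genes were higher, and 5 higher and 1 lower in CD8, where 23.6% were called in either direction. CD3-complex scaling called 11400 of the 15960 genes lower in CD8. The balance of the members there turned to 2 higher and 4 lower, with Cd27 (log2 -1.48, adjusted p 0.00332) and Tnfsf8 (log2 -3.72, adjusted p 0.000261) called lower and Tnfrsf4 and Tnfrsf18 no longer called (edgeR). Before that scaling the largest difference was Tnfrsf9 in CD8, from 4.27, 8.5 and 10.7 CPM in the libraries labelled pre-tx to 709, 502 and 386 CPM (log2 6.22 ± 0.524 SE, adjusted p 4.44e-06, edgeR). Fasl in CD8 (log2 4.5 ± 0.62 SE, adjusted p 0.000124, edgeR) was at 6.73, 5.69 and 8.15 CPM and then 273, 35.5 and 122 CPM. Both kept the call under all 14 alternatives, but CD3-complex scaling lowered the differences to log2 3.56 for Tnfrsf9 and 1.85 for Fasl. Per 1000 CD3-complex counts Tnfrsf9 was at 7.31 to 17 and then at 126 to 185, without overlap, while Fasl was at 8.8 to 13 and then at 9.18 to 71.2, with overlap. In CD4, Tnfrsf4 (log2 4 ± 0.307 SE, adjusted p 3.92e-07), Cd40lg (log2 3.81 ± 0.403 SE, adjusted p 7.98e-06), Tnfsf8 (log2 3.4 ± 0.375 SE) and Fasl (log2 3.29 ± 0.463 SE, adjusted p 0.000111) kept the call under every alternative run, while Tnfrsf9, Tnfrsf18, Cd27, Tnfsf11 and Tnfsf14 lost it after CD3-complex scaling. That scaling lowered the 4 that were kept to log2 2.38 for Tnfrsf4, 2.19 for Cd40lg, 1.77 for Tnfsf8 and 1.64 for Fasl.

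The binding partners of the members were read in the same fits. In Cat-Tg CD8 libraries 1 of the 8 partners tested rose post-tx and 1 fell, where 13.9% of all genes were called. The receptor of Tnfsf14 and lymphotoxins, Ltbr, had 2, 1 and 1 counts pre-tx and 26, 22 and 85 counts post-tx (adjusted p 0.0278), and Cd40 fell (log2 -2.22 ± 0.591 SE, adjusted p 0.0224, edgeR). The ligand of CD137, Tnfsf9, was at 1.33 to 6.15 CPM pre-tx and 11.2 to 26.5 CPM post-tx in CD8, without overlap but with an adjusted p of 0.0588, and the CD27 ligand Cd70 was at 0 or 1 count a library pre-tx and 40 to 60 counts post-tx (adjusted p 0.0625). In Cat-Tg CD4 libraries 3 of 8 partners rose and 1 fell, where 40.9% of all genes were called. Tnfsf9 went to 18 to 24.6 CPM from 0.866 to 4.59 CPM (log2 2.87 ± 0.727 SE, adjusted p 0.00556, edgeR), Cd70 to 3.43 to 6.45 CPM from 0.0309 to 0.18 CPM (adjusted p 0.000208), and Ltbr to 31.9 to 48.1 CPM from 1.24 to 6.3 CPM (log2 3.3 ± 0.588 SE, adjusted p 0.00055, edgeR), while Cd40 fell (log2 -1.89 ± 0.463 SE, adjusted p 0.00454). The B cell list fell in the same contrasts, from 182 to 413 CPM to 65 to 78.2 CPM in Cat-Tg CD8 libraries. In Cat-Tg CD4 libraries it went from 455 to 634 CPM to 53.5 to 69.2 CPM. The part of B cells in the fall of Cd40 was not tested.

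Of the partners compared between genotypes post-tx, Ltbr alone differed, in CD4 (log2 3.1 ± 0.579 SE, adjusted p 0.00398, edgeR), where 10% of all genes were called. Its WT CD4 post-tx libraries were at 3.77 to 4.6 CPM. In CD8 none of 8 partners was called, where 1.67% of all genes were, and 1 had an unadjusted p under 0.05. Myeloid cells are a usual source of Ltbr, and the myeloid list was higher in the same Cat-Tg libraries, but its part was not tested. Between the cell types in Cat-Tg post-tx, 3 of 9 partners were lower in CD8, where 5.85% of all genes were called in either direction. These were Ltbr (log2 -4.8 ± 0.888 SE, adjusted p 0.00103), Tnfrsf11a, the RANK receptor (log2 -2.82 ± 0.694 SE, adjusted p 0.0131), and Tnfrsf14, the HVEM receptor (log2 -2.04 ± 0.401 SE, adjusted p 0.00181, edgeR). Between the cell types in Cat-Tg pre-tx only Ltbr of 9 was called, where 1.53% of all genes were. In WT post-tx none of the partners was called, where 12.8% of all genes were (0 of 9 also had an unadjusted p under 0.05). Tnfsf4, the ligand of OX40, was at 0.0309 to 1.48 CPM pre-tx and 0.867 to 5.54 CPM post-tx in Cat-Tg CD4 libraries. In Cat-Tg CD8 libraries it was at 0.498 to 2.68 CPM and then 1.53 to 3.11 CPM, and it was not among the partners called over time. The GITR ligand Tnfsf18 was at 0 counts in the 6 CD8 post-tx libraries, where 3 counts would be 0.0966 to 0.203 CPM. The CD30 receptor Tnfrsf8 was at 1.47 to 4.65 CPM in Cat-Tg CD8 post-tx libraries and did not pass the test over time.

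The other ligands, receptors and adaptors of the family were read over time in the same way. In Cat-Tg CD8 libraries, where 13.9% of all genes were called, 1 of 8 other ligands fell, 1 of 13 other receptors rose and 1 fell, and 1 of 14 adaptors rose and 1 fell. Ltb, the lymphotoxin β of resting lymphocytes, fell from 1590 to 2320 CPM to 418 to 435 CPM (log2 -2.18 ± 0.396 SE, adjusted p 0.00259, edgeR), and Tnfrsf1b, the second TNF receptor, rose from 64.8 to 103 CPM to 469 to 616 CPM (log2 2.58 ± 0.501 SE, adjusted p 0.0039, edgeR). The adaptor Tradd rose (log2 1.63 ± 0.414 SE, adjusted p 0.0178) and Birc2, a ubiquitin ligase of the receptor complex, fell (log2 -2.46 ± 0.679 SE, adjusted p 0.0273), while Tnfrsf26 fell (log2 -1.74 ± 0.453 SE, adjusted p 0.02). In Cat-Tg CD4 libraries, where 40.9% of all genes were called, 1 of 8 other ligands fell, 2 of 17 other receptors rose and 3 fell, and 2 of 14 adaptors rose and 1 fell. Ltb (log2 -2.05 ± 0.392 SE, adjusted p 0.000908) and Birc2 (log2 -2.15 ± 0.374 SE, adjusted p 0.000441) fell there as well, and Ripk1 (log2 1.35 ± 0.409 SE, adjusted p 0.0147) and Traf3 (log2 1.07 ± 0.413 SE, adjusted p 0.045) rose. Of the receptors, Tnfrsf21 rose (log2 3.14 ± 0.511 SE, adjusted p 0.000277), and Ngfr (log2 -3.97 ± 1.01 SE) and Eda2r (log2 -3.83 ± 1.51 SE) fell from means of 1.23 and 1.56 CPM to 0.0931 and 0.12 CPM. The myeloid list summed to 1590 to 2280 CPM in Cat-Tg CD4 pre-tx and 5680 to 6620 CPM in Cat-Tg CD4 post-tx libraries, and its part was not tested.

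Between genotypes post-tx, CD8 libraries had no call among the 8 other ligands, 13 other receptors and 14 adaptors by edgeR, where 1.67% of all genes were called. Of these lists, 0, 3 and 4 genes had an unadjusted p under 0.05. In CD4 libraries Tnfsf13 (log2 2.81 ± 0.566 SE, adjusted p 0.00561), Tnfrsf21 (log2 2.39 ± 0.494 SE, adjusted p 0.00638) and Tnfrsf1a (log2 1.5 ± 0.308 SE, adjusted p 0.00631) were higher and Tnfrsf10b lower in Cat-Tg (log2 -2.11 ± 0.437 SE, adjusted p 0.00639), where 10% of all genes were called. None of 14 adaptors was called there, with 1 at an unadjusted p under 0.05. The myeloid list was higher in the same Cat-Tg CD4 libraries, at 5680 to 6620 CPM against 1000 to 1550 CPM in WT. The part of myeloid cells in these differences was not tested. Between CD8 and CD4 post-tx, lymphotoxin α (Lta) was lower in CD8 in both Cat-Tg (log2 -2.52 ± 0.725 SE, adjusted p 0.0382) and WT (log2 -2.79 ± 0.749 SE, adjusted p 0.014). Of the 14 adaptors, none was called between the cell types in Cat-Tg post-tx, where 5.85% of all genes were called, with 0 at an unadjusted p under 0.05. In WT post-tx 6 were called, where 12.8% of all genes were, with Casp8 (log2 -2.15 ± 0.437 SE, adjusted p 0.00157), Birc3 (log2 -1.93 ± 0.527 SE, adjusted p 0.0157) and Traf3 (log2 -1.83 ± 0.479 SE, adjusted p 0.0116) the largest. In comparisons with the libraries labelled WT pre-tx, Cd40 (log2 -3.91 ± 0.624 SE in CD8, -3.64 ± 0.486 SE in CD4) and Tnfrsf13c, the BAFF receptor of B cells (log2 -4.59 ± 0.531 SE in CD8, -3.83 ± 0.452 SE in CD4), were lower in Cat-Tg, beside the B cell content given above.

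Genes with the pattern most like each member were found by Pearson correlation over the 24 libraries among 16753 protein-coding genes, as a description in which cell type, time and the libraries labelled WT pre-tx all take part. Tnfrsf9 was most like Cmc2 (r = 0.95), Clic1 (0.935) and Ldha (0.935), and Serpinb9 (0.938) and Hmgb2 (0.934) were among the genes most like Fasl. Tnfrsf4 was closest to Il2ra (0.856), Kctd17 (0.842) and Nrp1 (0.838), 2 of which are on the list of regulatory T cell genes. Tnfrsf18 was closest to Zap70 (0.932), Lat (0.898) and Dynlrb1 (0.893), Cd27 to Serp2 (0.835), Lck (0.817) and Gstp3 (0.815), and Fas to Cops4 (0.853), Zfp53 (0.848) and Rragb (0.836). Among the ligands, Cd40lg was closest to Vcam1 (0.936), Slc40a1 (0.909) and Itgad (0.9), Tnfsf8 to Cd69 (0.937), Il7r (0.898) and Slfn1 (0.885), Tnfsf11 to Srxn1 (0.762), Ccr8 (0.762) and Ccr4 (0.76), and Tnfsf14 to Rad54l (0.828), Tnfsf9 (0.82) and Ly6g5b (0.803). Cd40lg and the myeloid list were both higher in CD4 than in CD8 post-tx libraries, and the part of myeloid cells in the likeness of Cd40lg was not tested. Among the 45 pairs of members, Tnfrsf9 and Fasl had the highest r (0.837) and Cd27 and Cd40lg the lowest (-0.463).

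On GRCm38, Tnfrsf4 (156013843 to 156016612) and Tnfrsf18 (156026164 to 156028895) are neighbors on the plus strand of chromosome 4, and Tnfsf8 (63831308 to 63861347) lies on its minus strand. Cd27 is at 125232622 to 125237010 on chromosome 6 and Fas at 34290666 to 34327772 on chromosome 19. Cd40lg is at 57212143 to 57224042 on chromosome X, Tnfsf11 at 78277445 to 78308043 on chromosome 14, Tnfsf14 at 57189492 to 57194177 on chromosome 17 and Fasl at 161780689 to 161788495 on chromosome 1. Cd27 overlaps Vamp1 and Tnfrsf18 overlaps Gm16008 on the opposite strand, so reads of these overlaps cannot be told apart. Within Fas, the coding transcript Fas-201 took 69.5% to 89.9% of the estimated counts in Cat-Tg CD8 pre-tx and 67.5% to 78.1% post-tx libraries, and Fas-204, annotated to nonsense-mediated decay, took 0% to 14.3% and then 16.9% to 24.4%.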

How the data were processed

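The 24 libraries (8 groups of 3, grouped by their labels) were made from total RNA with the SMARTseq HT and Nextera XT kits, which do not mark strand. The authors deposited transcript tables of estimated counts and TPM from kallisto 0.46.2, and the submitters' processing notes name mm9. The index release is not given in the sources used here. Transcript identifiers were matched to GENCODE M21 (GRCm38) and the deposited estimated counts were summed to gene symbols, which placed 116374 of 117497 transcripts and 99.57% to 99.75% of the counts.

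Summed counts were rounded and tested with edgeR 4.0.16 (R 4.3.3, robust quasi-likelihood F test, TMM) per cell type over 12 libraries, as the study analysed each cell type apart, and over all 24 for contrasts of cell types. Genes needed more than 1 CPM in at least 3 libraries. A call needed a Benjamini-Hochberg adjusted p of at most 0.05 over all genes tested and at least 2-fold, the limits given in the study's methods. Shares over all genes are at the limits of a call. Counts at an unadjusted p under 0.05 have no such share beside them and cannot be set against the shares of called genes. SE is the log2 fold change divided by the root of F. CPM values were normalized over all 24 libraries. The authors' limma-voom analysis used TPM and was not used. Intervals, floors of 3 counts and p-values cover counting error and the spread between 3 libraries.

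The fits were repeated with DESeq2 1.42.0, with its size factors in edgeR, with limma-voom (limma 3.58.1), and with scaling to the 4 CD3-complex genes, no filter, counts from length-scaled TPM, a replicate block, only the libraries compared, other fold limits and leaving out each replicate. Fits without the 6 libraries labelled WT pre-tx were chosen after seeing the data. The members and gene lists were chosen with earlier results of these data known. Named are all 10 members, their 9 binding partners, of the other ligands, receptors and adaptors at most 3 called genes a list and comparison by size, and the 3 protein-coding genes most like each member (Pearson r of log2 CPM, prior count 2), 1 of which is not reported here. Promoter windows are RefSeq (GRCm38.p6), from 250 bases before to 50 after the start, and 9 members had one.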

Additional observations from a re-analysis of the deposited data

Results flagged for a closer look

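The results below are called by a test of a difference between 2 differences, and each is a difference of log2 fold changes with its SE, by edgeR's quasi-likelihood test with Benjamini-Hochberg adjustment. In Cat-Tg mice, CD8 T cells rose further post-tx than CD4 T cells in Tnfrsf9 (3.57 ± 0.541, adjusted p 0.000873), Fasl (3.25 ± 0.741, adjusted p 0.0286) and Tnfrsf4 (2.91 ± 0.694, adjusted p 0.0405), where 0.949% of all genes were called. The contrast did not use the libraries labelled WT pre-tx, but the fit held them. Without them the Tnfrsf4 call was lost (2.92, adjusted p 0.0554, edgeR). Of 21 alternatives, Tnfrsf9 kept its call under all, Fasl under 11 and Tnfrsf4 under 4.

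The other 12 set the post-tx against pre-tx difference of Cat-Tg T cells against that of WT, and so rest on the libraries labelled WT pre-tx, whose markers did not match their labels. In CD4 libraries, where 21.3% of all genes were called for this term, 9 members were lower in Cat-Tg. The receptors were Tnfrsf4 (-3.56 ± 0.397, adjusted p 3.49e-05), Fas (-3.4 ± 0.89, adjusted p 0.0145), Tnfrsf9 (-3.05 ± 0.447, adjusted p 0.000361), Cd27 (-2.15 ± 0.371, adjusted p 0.00113) and Tnfrsf18 (-1.59 ± 0.389, adjusted p 0.00992). The ligands were Tnfsf8 (-4.22 ± 0.503, adjusted p 6.59e-05), Tnfsf11 (-3.27 ± 1.11, adjusted p 0.0466), Cd40lg (-3.24 ± 0.522, adjusted p 0.000713) and Fasl (-3.14 ± 0.613, adjusted p 0.00258). The Tnfsf11 call was kept in 4 of 19 alternatives and was lost on leaving out any 1 of 11 of the 12 CD4 libraries. After scaling to the CD3-complex counts, only Tnfsf8 of these 9 kept its call in the same direction, and Tnfrsf18 was called in the other (1.25). The scaling called 9314 of the 17227 genes higher for this term. In CD8 libraries, where 10.7% of all genes were called, Tnfrsf9 (-2.75 ± 0.603, adjusted p 0.00897) and Tnfrsf18 (-2.51 ± 0.536, adjusted p 0.00746) were lower and Cd40lg higher (4.67 ± 1.31, adjusted p 0.0322), and after the same scaling the first 2 turned to 0.06 and 0.26 and Cd40lg went to 7.28. That scaling called 7977 of the 15960 genes higher for this term in CD8. The Cd40lg call was lost with the replicate block (adjusted p 0.0607) and on leaving out any 1 of 4 libraries (adjusted p 0.0524 to 0.0936), namely Cat-Tg CD8 pre-tx replicate 3, Cat-Tg CD8 post-tx replicates 1 and 2, and WT CD8 pre-tx replicate 1.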

How the results depend on the processing

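Of 44 called differences between 2 groups, 16 kept their call under every alternative run, and of 15 called differences of differences 2 did (Tnfrsf9 for time by cell type in Cat-Tg, Tnfsf8 for genotype by time in CD4). The counts of called members that moved by more than 1.5 times were as follows. With DESeq2, 6 against 3 were called for Cat-Tg against WT in CD8 pre-tx, 1 against 0 in CD8 post-tx, 2 against 1 for Cat-Tg CD4 over time and 5 against 2 for CD8 against CD4 in Cat-Tg pre-tx. With limma-voom, Cat-Tg CD4 over time had 2 and CD8 against CD4 in WT post-tx had 5 against 3. With the libraries compared alone, Cat-Tg against WT in CD8 pre-tx had 5 and CD8 against CD4 in Cat-Tg pre-tx had 4. Without the libraries labelled WT pre-tx, Cat-Tg against WT in CD4 post-tx had 1 against 3, Cat-Tg CD4 over time 2 and CD8 against CD4 in WT post-tx 5. Without a filter, Cat-Tg CD4 over time had 0. At a 4-fold limit (log2 of 2), Cat-Tg against WT had 5 against 8 in CD4 pre-tx and 0 in CD4 post-tx, Cat-Tg CD4 over time had 0 and CD8 against CD4 in Cat-Tg post-tx had 3 against 5, and at any fold Cat-Tg CD4 over time had 2.

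Scaling to the CD3-complex counts moved the most. It gave 9 calls, all lower, for Cat-Tg against WT in CD8 pre-tx, 1 against 8 in CD4 pre-tx, 0 in CD4 post-tx, 5 against 1 for Cat-Tg CD4 over time, 4 against 9 for WT CD4 over time, 5 (all higher) against 3 for genotype by time in CD8, 2 against 9 for it in CD4, 4 against 2 for CD8 against CD4 in Cat-Tg pre-tx and 5 against 3 in WT post-tx. Over all genes that scaling called 12142 of 15960 lower for Cat-Tg against WT in CD8 pre-tx and 10955 of 17227 lower in CD4 pre-tx. For genotype by time it called 7977 of 15960 higher in CD8 and 9314 of 17227 higher in CD4. Over time it called 11400 of 15960 lower in WT CD8, 9777 of 17227 lower in WT CD4 and 6640 of 17227 higher in Cat-Tg CD4. The member counts and signs have to be read beside these shifts of all genes. Signs turned for Cat-Tg against WT in CD8 pre-tx (Cd27 -1.63, Fas -1.54, Fasl -2.12, Tnfrsf18 -1.06, Tnfsf8 -0.54) and in CD4 pre-tx (Cd27 -0.89, Tnfrsf18 -0.71, Tnfrsf9 -0.71), for WT CD8 over time (Cd27 -1.48, Tnfsf14 -0.59), WT CD4 over time (Cd27 -0.38, Fas -0.17, Tnfrsf18 -0.0011), Cat-Tg CD4 over time (Cd27 0.26), and genotype by time in CD8 (Tnfrsf18 0.26, Tnfrsf9 0.06) and CD4 (Cd27 0.64, Tnfrsf18 1.25). For WT CD8 over time it gave 2 higher and 4 lower in place of 5 and 1. The cause was not tested. Under the other alternatives no sign turned among the called values and those whose groups did not overlap, but for Cat-Tg CD4 over time DESeq2 and its size factors in edgeR moved the median over all genes from -0.38 to -0.15 and that of the members from -0.04 to 0.21.

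Leaving out each replicate in turn gave 3 to 4 called members for Cat-Tg CD8 over time, 0 to 2 for Cat-Tg CD4, 4 to 6 for WT CD8, 7 to 10 for WT CD4, 0 to 2 for Cat-Tg against WT in CD8 pre-tx, 0 to 0 in CD8 post-tx, 6 to 9 in CD4 pre-tx, 1 to 3 in CD4 post-tx, 2 to 2 for CD8 against CD4 in Cat-Tg pre-tx, 3 to 4 in Cat-Tg post-tx, 3 to 6 in WT post-tx, 2 to 3 for genotype by time in CD8, 7 to 8 in CD4, 1 to 2 for time by cell type and 0 to 0 for genotype by cell type. The replicate numbers did not pair the libraries by their deviations (correlations of -0.229 to 0.176, with no comparison in which every pair was above 0.1), although both cell types came from each mouse. With the replicate number as a block, 3 against 5 members were called for CD8 against CD4 in Cat-Tg post-tx and 1 against 3 for time by cell type, and the other 13 counts were within 1.5 times. Depth limits the low members, Tnfsf11 in CD8 libraries above all, at 2 to 6 counts in Cat-Tg CD8 pre-tx.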
